A study of Mus musculus with 6 samples.

Results

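Midkine (Mdk), pleiotrophin (Ptn), the syndecans Sdc1, Sdc2, Sdc3 and Sdc4, the receptor Lrp1 and nucleolin (Ncl) were examined in the lungs of mice with and without activation of a human SRY transgene. The members were the 8 genes, of 18138 gene symbols on the array, whose symbol matched this short list of the growth factors and their binding partners, and all of their 14 probes were read. Mdk was chosen by its measured log2 change, a large fall in these same arrays, so its values are given as a description with no test. Of the 14 probes, 13 passed the detection filter (detected at p under 0.05 on at least 3 of 6 arrays).

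Midkine and pleiotrophin form a family of small secreted proteins that bind heparin. They are abundant in developing organs, where they act on cell growth, survival and migration, and midkine is known from the fetal lung. Syndecans are transmembrane proteins whose heparan sulfate chains capture these and other growth factors at the cell surface. Lrp1, a large endocytic receptor, and nucleolin, a nucleolar protein that can also reach the cell surface, are both described as binding partners of midkine.

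Lungs of 3 hSRY-OFF and 3 hSRY-ON mice, all males of the FVB strain (FVB/N in the study's methods) taken on postnatal day 6, were each profiled on 1 Illumina MouseRef-8 array. In hSRY-ON mice the Signalox-hSRY transgene, a single copy at the H11 locus, had been recombined by Cre protein from the egg of a Ddx4-Cre mother, and the ubiquitous CAG promoter then drove FLAG-tagged human SRY together with EGFP. The hSRY-ON mice of the arrays did not carry Ddx4-Cre themselves. The name hSRY-OFF stands for the transgene without recombination, in which the same promoter drives DsRed2, but the study also compares with littermates lacking the transgene, so its presence in these 3 mice rests on the label. All transgenic mice derive from 1 integration, and the array has no probe for human SRY, so activation cannot be read from these data. The hSRY-ON pups were growth-retarded by this age, and the transgene and poor growth cannot be told apart. These are bulk lung samples, in which fewer cells of a type and less RNA per cell cannot be told apart. The tissue label was checked against defining markers: 7 of 7 alveolar type II and 4 of 6 alveolar type I genes passed the detection filter, Hopx and Rtkn2 did not, and 7 of 8 cardiac muscle genes passed too.

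Mdk was lower in hSRY-ON lungs on all 4 of its probes. On the brightest probe (ILMN_3158499) the normalized log2 intensity was 14.23, 14.18 and 14.18 on the hSRY-OFF arrays and 11.74, 11.04 and 13.10 on the hSRY-ON arrays. All hSRY-ON arrays lay below all hSRY-OFF arrays, and hSRY-ON replicate 3 lay nearest to them. The group means were 14.20 ± 0.03 (SD, n = 3) and 11.96 ± 1.05 (SD, n = 3), a difference of -2.24, or 4.73-fold lower. Before normalization the same probe read 17902.7, 16618.3 and 19954.6 against 3217.5, 2234.7 and 9762.1 intensity units, again with no overlap.

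The second probe, ILMN_1254450, gave the lowest Mdk change. Its log2 values were 11.68, 11.57 and 11.78 in hSRY-OFF and 8.87, 7.91 and 10.14 in hSRY-ON, a change of -2.70, or 6.50-fold lower, the 8th lowest change of the 13841 probes tested. The dimmer probes went the same way, with a change of -2.14 on ILMN_3080012 and -1.53 on ILMN_3079236. On ILMN_3080012 the values were 8.15, 7.85 and 7.82 against 5.46, 5.33 and 6.62. On ILMN_3079236 they were 6.47, 6.72 and 7.05 against 5.02, 4.94 and 5.69. These last probes were near background in hSRY-ON, ILMN_3080012 being detected on 2 of 3 hSRY-ON arrays and ILMN_3079236 on 1. The size of their changes therefore depended on the background correction, without which they were -0.96 and -0.51. No Mdk probe had overlapping groups, which also held for 46.6% of all tested probes, and Mdk was chosen for its fall on these arrays.

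The size of the Mdk difference varied among the hSRY-ON mice. Against the hSRY-OFF mean the brightest probe was 5.51-fold lower on hSRY-ON replicate 1, 8.95-fold lower on replicate 2 and 2.15-fold lower on replicate 3. On ILMN_1254450 the corresponding values were 6.97-fold, 13.6-fold and 2.90-fold. hSRY-ON replicate 3 had the highest hSRY-ON value on all 4 probes. The SD of the brightest probe was 33.5 times as large in hSRY-ON as in hSRY-OFF, where it was only 0.03. On ILMN_1254450, ILMN_3080012 and ILMN_3079236 the SD was 10.8, 3.95 and 1.42 times as large. Those SDs are of log2 values. On the linear scale before normalization, the SD of the brightest probe was 1683 intensity units in hSRY-OFF and 4092 in hSRY-ON. On the other probes the linear SD was smaller in hSRY-ON. It was 674 in hSRY-OFF against 522 on ILMN_1254450, 41.5 against 37.7 on ILMN_3080012 and 42.5 against 18.1 on ILMN_3079236. After normalization, 0.686% of tested probes had a hSRY-ON SD at least as large as that of the brightest Mdk probe. Over all tested probes the median SD was 0.22 in hSRY-ON and 0.13 in hSRY-OFF. The 1845 probes called lower over the whole array had a median difference from the hSRY-OFF mean of -0.77, -0.89 and -0.68 on hSRY-ON replicates 1, 2 and 3, and hSRY-ON replicate 3 lay closest to hSRY-OFF for 55.4% of them.

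**Figure D1:**
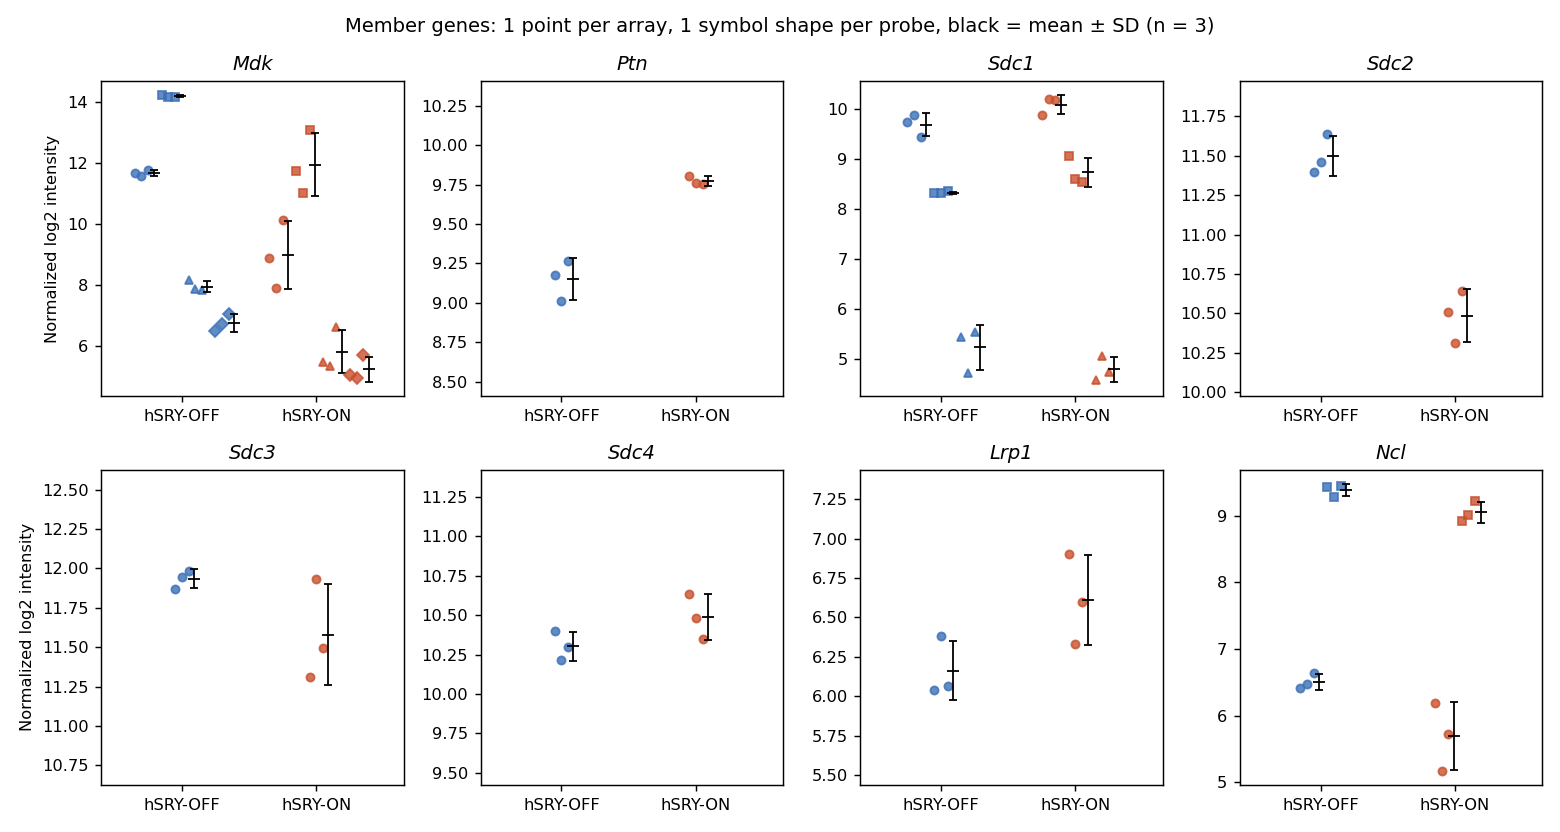
Normalized log2 intensity of the 8 genes, 1 panel per gene, with 1 point per array, 1 symbol shape per probe, and black bars for the mean ± SD of 3 arrays in hSRY-OFF and hSRY-ON. The Mdk groups are apart on every probe with a wide spread in hSRY-ON, Sdc2 is lower and Ptn higher in hSRY-ON, and the Sdc4 groups overlap.

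Ptn, the other member of the ligand family, rose. Its log2 values were 9.18, 9.01 and 9.27 in hSRY-OFF and 9.81, 9.76 and 9.75 in hSRY-ON. All hSRY-ON values lay above all hSRY-OFF values, with a small spread between the hSRY-ON arrays. The change was 0.62 (SE 0.12, 95% confidence interval 0.34 to 0.90), or 1.54-fold, with a limma adjusted p of 0.0107 over all probes. The call was lost when hSRY-OFF replicate 2 was left out, where the change was 0.55 and the adjusted p 0.0520. The 2 ligand genes thus went in opposite directions, with a test for Ptn only.

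Among the syndecans, Sdc2 fell and no other syndecan passed the test. Sdc2, the syndecan of fibroblasts and other mesenchymal cells, had log2 values of 11.40, 11.46 and 11.64 in hSRY-OFF and 10.51, 10.31 and 10.64 in hSRY-ON. The groups did not overlap. The means were 11.50 ± 0.13 and 10.49 ± 0.17 (SD, n = 3 each), a change of -1.01 (SE 0.14, interval -1.33 to -0.69), or 2.02-fold lower, with a limma adjusted p of 0.00365.

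Sdc1, the syndecan of epithelial cells, gave close values on its tested probes without reaching the threshold. Probe ILMN_2756943 read 9.73, 9.88 and 9.43 in hSRY-OFF and 9.87, 10.20 and 10.18 in hSRY-ON, a change of 0.40 (interval 0.02 to 0.79, limma adjusted p 0.108), and its groups overlapped. Probe ILMN_1228718 read 8.30, 8.31 and 8.34 against 9.06, 8.59 and 8.53, a change of 0.41 (interval 0.02 to 0.79, limma adjusted p 0.105), with groups apart. The unadjusted intervals left out 0, and the p-values adjusted over the array did not pass. The third Sdc1 probe, ILMN_2927799, was detected on 2 hSRY-OFF arrays and on 0 hSRY-ON arrays and was not tested.

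Sdc3, known from neural tissue and muscle, was near its hSRY-OFF level in 1 of the hSRY-ON lungs. The log2 values were 11.87, 11.95 and 11.99 in hSRY-OFF and 11.31, 11.94 and 11.50 in hSRY-ON. Replicate 2 of hSRY-ON lay among the hSRY-OFF arrays and the other two below them. The change was -0.35 (interval -0.77 to 0.06, limma adjusted p 0.174). Without hSRY-ON replicate 2 it was -0.53 with an adjusted p of 0.0392. Sdc4, a widely expressed syndecan of focal adhesions, had values of 10.40, 10.21 and 10.30 against 10.63, 10.48 and 10.35, with overlapping groups, a change of 0.19 (interval -0.11 to 0.48) and a limma adjusted p of 0.312.

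Lrp1 was dim on its probe, with raw intensities between 205 and 247.4. The log2 values were 6.04, 6.38 and 6.07 in hSRY-OFF and 6.90, 6.33 and 6.60 in hSRY-ON, and the groups overlapped. The change was 0.45 (interval 0.02 to 0.87) with a limma adjusted p of 0.107. No difference of Lrp1 was called, with an interval that reached from almost no change to a rise of 0.87.

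Ncl was lower on both probes and called on the dimmer one. Probe ILMN_2693976, detected on 2 of 3 hSRY-ON arrays, read 6.41, 6.48 and 6.64 in hSRY-OFF and 6.19, 5.18 and 5.72 in hSRY-ON, with no overlap. Its change was -0.81 (SE 0.25, interval -1.40 to -0.23) with a limma adjusted p of 0.0494. That call was lost in 8 of 14 alternatives, among them the removal of any single array except hSRY-ON replicate 1, the adjusted p ranging from 0.00978 to 0.138. The brighter probe, ILMN_2723850, read 9.43, 9.28 and 9.45 against 8.92, 9.01 and 9.22, also with no overlap, a change of -0.33 (interval -0.63 to -0.03) and a limma adjusted p of 0.0985. Without hSRY-ON replicate 2 the change of the dim probe was -0.56 and its adjusted p 0.0863.

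Leaving Mdk aside, 3 of 9 tested probes of the other members were called (33.3%), 1 higher and 2 lower. Of all tested probes, 26.9% were called, 13.6% higher and 13.3% lower in hSRY-ON, so the members' share was near the background. The groups did not overlap on 5 of the 9 probes, against 46.6% of all tested probes. The median change over these 9 probes was 0.19, and over all tested probes it was -0.03. The 3 called genes were Ptn, Sdc2 and Ncl.

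**Figure D2:**
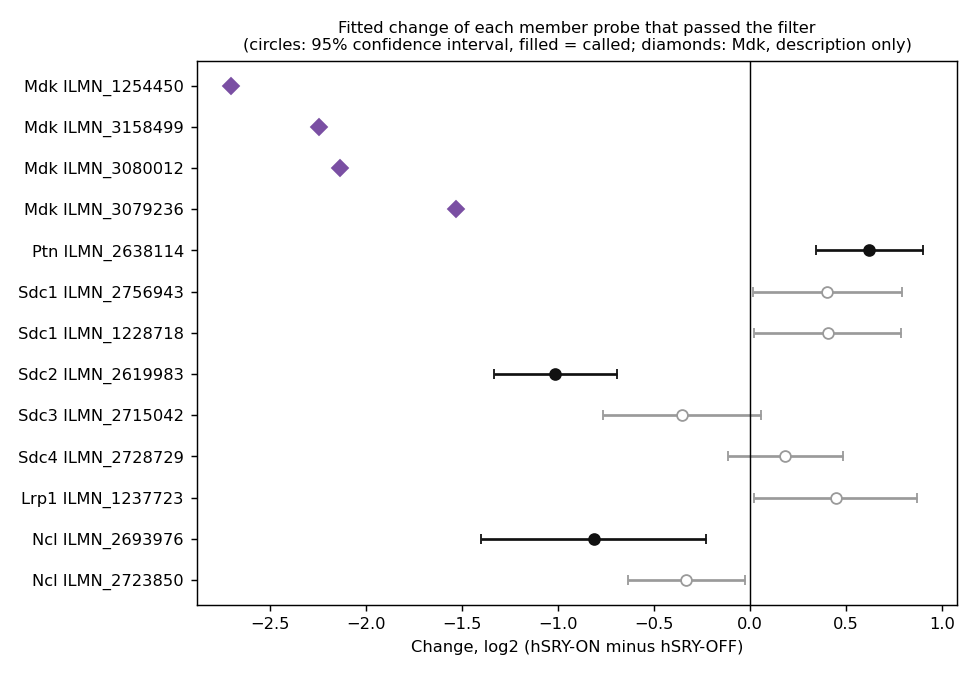
Fitted change (log2, hSRY-ON minus hSRY-OFF, x axis) of the 13 member probes that passed the filter, 1 row per probe, with 95% confidence intervals for the tested members, filled circles for called probes and diamonds for Mdk, which has no test. The 4 Mdk probes lie from -2.70 to -1.53, Sdc2 lies at -1.01 and Ptn at 0.62.

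The promoters of Ptn and Ncl, 2 of the 3 genes called, are shown because the transgene encodes a DNA-binding factor of the HMG-box family. RefSeq promoters (GRCm38.p6, 250 bases before the gene start) were available for 6 of the 8 members, those of Mdk and Sdc2 being without an entry. They were searched on both strands for AACAAA as well as AACAAT, the form TACAAA and the form TACAAT, which are forms of the HMG-box core, matches being allowed to overlap. A match was found in 35.0% of 32851 promoters and 3.8% held at least 3. Of the 6 members only Ptn held any, with 3 matches that start at positions -205, -201 and -169 from the gene start, the first 2 overlapping. Capitals mark the matched letters on the gene strand.
Ptn, chr6:36810180-36810429, minus strand: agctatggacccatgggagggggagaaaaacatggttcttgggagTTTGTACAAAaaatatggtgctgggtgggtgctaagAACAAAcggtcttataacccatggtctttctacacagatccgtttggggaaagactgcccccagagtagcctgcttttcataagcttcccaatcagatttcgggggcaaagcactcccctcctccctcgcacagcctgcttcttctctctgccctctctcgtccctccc
Ncl, chr1:86359456-86359705, minus strand: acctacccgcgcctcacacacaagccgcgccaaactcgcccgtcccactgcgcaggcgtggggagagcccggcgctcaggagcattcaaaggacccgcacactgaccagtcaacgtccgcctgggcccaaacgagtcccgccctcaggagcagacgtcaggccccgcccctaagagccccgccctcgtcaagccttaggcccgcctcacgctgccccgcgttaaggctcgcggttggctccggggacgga

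A match of this length describes the letters and is not a site, and no binding was measured in these samples. The Ptn window had a GC content of 52.0% and the Ncl window 69.6%, against a median of 52.4% over all promoters. The other windows without a match were GC-rich too, at 66.0% for Sdc1, 76.4% for Sdc3, 68.0% for Sdc4 and 67.2% for Lrp1.

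The other genes of the pathway were read from 6 lists by role, holding 106 tested probes in all. Of these, 21 were called (19.8%), 7 higher and 14 lower, against 26.9% over all probes, and the median change was -0.07. Leaving out hSRY-OFF replicate 1 took this count to 5, leaving out replicate 2 of that group took it to 6 and replicate 3 to 13, and leaving out hSRY-ON replicate 2 took it to 10. The count over all probes fell as well, to 1504 at the lowest from 3728.

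Receptors and partners of midkine and pleiotrophin showed 1 called probe of 9 (11.1%), with a median change of -0.26. It was that of Lrp6, a Wnt co-receptor of the LDL receptor family that also binds midkine, with a change of -0.59 (limma adjusted p 0.0316), detected on 1 hSRY-ON array. The next genes did not pass and were named after their values were seen. Nrp1, a receptor for semaphorins and VEGF, was not called on either probe (-0.36 and -0.26). Integrin alpha V (Itgav) was at -0.57 with a limma adjusted p of 0.152. The 2 integrin beta 1 (Itgb1) probes had opposite signs, -0.58 and 0.22, and neither was called. Only 7 of the 14 genes were tested.

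Of the glypicans and other heparan sulfate core proteins, 4 of 14 probes were called (28.6%), 3 higher and 1 lower, with a median of 0.01. Tgfbr3, betaglycan, a co-receptor for TGF-beta that carries heparan sulfate, rose by 1.04 on 1 probe (limma adjusted p 0.0109), while its second probe was at 0.20 and not called. Both Gpc3 probes were called higher, at 0.48 and 0.51, glypican-3 being an inhibitor of growth in the embryo and named after its values were seen. Gpc1, glypican-1, fell by 0.71 (limma adjusted p 0.00610).

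The enzymes that build and modify the sulfated chains were called on 5 of 26 probes (19.2%), 1 higher and 4 lower, with a median of 0.02. Chst15 (4631426J05Rik on the array), a chondroitin sulfotransferase, rose by 0.65 (limma adjusted p 0.0254). Hs3st3a1, which adds a rare sulfate to heparan sulfate, fell by 0.80 (limma adjusted p 0.0278). The other probes called lower, named after their values were seen, were of Ext1, a polymerase of the heparan sulfate chain, at -0.64, Hs2st1 at -0.47 and Extl3 at -0.37. The other tested Extl3 probe was at -0.14 and not called.

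Among syndecan tail partners and sheddases 3 of 20 probes were called (15%), with a median of 0.01. Timp3, an inhibitor of the proteases that shed syndecans, rose by 0.75 (limma adjusted p 0.0116) on its bright probe. Gipc1, which binds syndecan tails, was called lower on 2 of 4 probes, at -0.48 and -0.52. In the LDL receptor family 3 of 15 probes were called (20%), Sorl1 rising by 0.60 (limma adjusted p 0.0153), Vldlr, also named after its values were seen, by 0.41 on 1 of 5 probes, and Lrp6 falling as above. A dim Vldlr probe went the other way, at -0.51 with groups apart (limma adjusted p 0.0565). The remaining Vldlr probes were at 0.11, 0.31 and 0.18 and were not called. A probe can belong to more than 1 list, and Lrp6 counts in both of its lists.

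Nucleolar proteins, the setting of nucleolin, were called on 6 of 23 probes (26.1%), 0 higher and 6 lower, with a median of -0.24. Over all tested probes 26.9% were called, 13.3% lower, so the share called was near the background and all calls were falls. Pes1, needed to build the large ribosomal subunit, fell by 1.37 (limma adjusted p 0.00384). Bop1, its partner in that complex, was at -1.04, Gar1 at -0.67, Nop56 at -0.65, Npm3 at -0.51 and Nop2 at -0.46, all called lower and named after their values were seen. For Npm3 and Nop2 this was 1 probe each. The other tested probe of Npm3 was at -0.35 and those of Nop2 at -0.29 and -0.16, and none of these was called. Npm1, nucleophosmin, likewise named afterwards, was at -0.03 and not called.

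**Figure D3:**
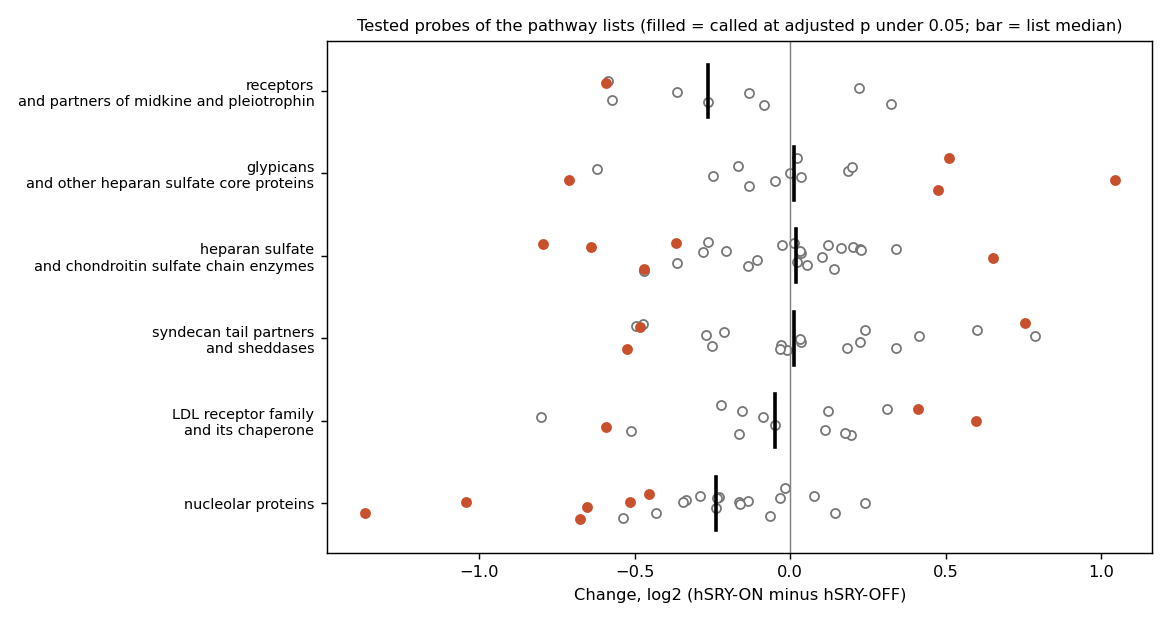
Change (log2, hSRY-ON minus hSRY-OFF, x axis) of each tested probe in 6 gene lists, 1 row per list, filled points for called probes and a bar for the list median. Called probes of the nucleolar list lie below 0, the medians lie between -0.26 and 0.02, and most points are open.

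The profile of Mdk over the arrays was set beside those of 10284 genes, each by its brightest tested probe, as the mean absolute difference of log2 values from the hSRY-OFF mean over 6 arrays. The 5 nearest were 6330403K07Rik (0.0808), Nrcam (0.108), Gif (0.174), Podxl2 (0.181) and Slc27a6 (0.184). The median distance was 1.17, a value that largely reflects the fall of Mdk itself. The changes of these 5 genes were -2.11, -2.10, -2.50, -1.97 and -2.60. Each was lowest on hSRY-ON replicate 2 and highest among hSRY-ON arrays on replicate 3, as Mdk was, which follows from choosing the genes by their distance to Mdk on these arrays. Nrcam is a neural cell adhesion molecule, Gif encodes intrinsic factor, Podxl2 a sialomucin and Slc27a6 a fatty acid transporter.

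**Figure D4:**
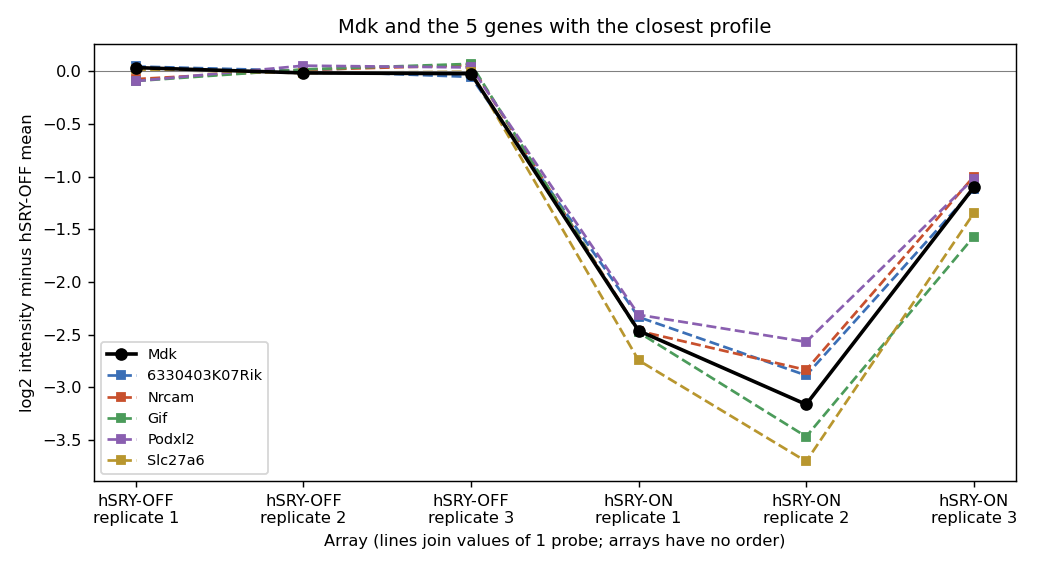
log2 intensity minus the hSRY-OFF mean (y axis) on each of the 6 arrays (x axis) for the brightest Mdk probe and the 5 genes with the smallest mean absolute difference from it; lines join the values of 1 probe. All 6 lines lie near 0 in hSRY-OFF, and in hSRY-ON they are lowest on replicate 2 and highest on replicate 3.

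Marker lists of cell types differed between the groups too, as summed linear levels of the detected genes. Such sums are led by the brightest genes. For the counts of called marker probes below, the shares over all tested probes were 13.6% higher and 13.3% lower. Dividing-cell markers summed to 9820, 7848 and 8200 in hSRY-OFF and to 2605, 2791 and 5822 in hSRY-ON, with 8 of 10 genes detected, Mki67 having no probe and Bub1 not kept, and 8 of 12 tested probes called lower. Among the hSRY-ON arrays this sum was lowest on replicate 1 and Mdk on replicate 2, and both were highest on replicate 3. A relation between the dividing-cell markers and Mdk was not tested. Endothelial markers summed to 38706 to 41889 against 27216 to 28031 (6 of 8 genes detected, Erg and Kdr not kept, 3 of 7 probes called lower).

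Mesenchymal markers, of the cells in which Sdc2 is best known, summed to 46244 to 49851 against 51146 to 54326 with 11 of 11 detected. This sum was led by Eln, elastin, which was not called (18940 to 20274 against 23681 to 25380), and without Eln the ranges overlapped at 27223 to 29577 against 26440 to 30645. Of the 15 mesenchymal probes 1 was called higher (Dcn) and 3 lower (Col1a1, Meox2 and Pdgfrb), and the median change was -0.31.

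The other lists were higher in hSRY-ON or overlapped. Mesothelial markers summed to 3826 to 4090 against 8041 to 11368 (3 of 5 detected, 5 of 5 probes called higher). Airway markers summed to 55498 to 57644 against 68118 to 82346 (7 of 7 detected, 6 of 9 probes called higher, the lowest change -0.14). Macrophage markers summed to 24423 to 26506 against 34557 to 42246 (7 of 9 detected, Itgax and Siglecf not kept, 5 of 10 probes called higher, the lowest change -0.26). All of these sums were apart between the groups. Alveolar type II markers summed to 54645 to 57359 against 64485 to 68508 (6 of 12 probes called higher, in 3 of 7 genes). Both probes of the type II gene Lamp3 were lower, at -0.31 and -0.18, and were not called. Alveolar type I markers summed to 39127 to 41242 against 42994 to 45677 (0 of 5 probes called). The summed cardiac muscle markers overlapped, at 6670 to 9235 against 3946 to 8606. Their probes did not move together: of 8 tested, 1 was called higher and 2 lower, with changes from -2.59 to 5.55. The part of these differences in the values of Mdk, Sdc2 and the other members was not tested.

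With 3 arrays a group, an exact permutation test on a single value cannot go below p = 0.1, so no such test was made. The p-values come from the limma fit, which weighs the difference between groups against the spread within groups, moderated over all tested probes. The 6 samples are 1 per mouse, and the labels do not tie them to litters.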

How the data were processed

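The 8 genes and the gene lists were chosen with earlier results of these data known. The authors deposited 1 table that holds, for each of 25697 probes and 6 arrays, a linear-scale intensity with its detection p-value. The deposited intensity is raw, with no correction for background and no scaling between arrays, and the detection p-value was computed by the array software of the authors. The median intensity per array ran from 177.1 to 204.0, and 13191 to 14134 probes were detected per array. The study analysed its arrays with TCC, a count method, and the submitters' notes also name limma. Here limma 3.58.1 in R 4.3.3 was used, since intensities are not counts. Following neqc, normexp correction used a background derived from detection p-values and an offset of 16, followed by quantile normalization and log2. Probes detected at p under 0.05 on at least 3 of 6 arrays were kept, leaving 13841 probes for 10292 symbols. Groups, from the sample labels, were compared with lmFit and eBayes, with Benjamini-Hochberg adjustment over all kept probes and a threshold of 0.05. The offset compresses changes of dim probes. The script was tested on simulated data. Marker levels are sums of linear normalized values. Promoters came from RefSeq. Named genes were all members, the gene of largest rise and of largest fall among called, non-overlapping probes of each pathway list, and the 5 genes closest to Mdk, and every other gene of a list was named after its values were seen. Alternatives were other background corrections, normalizations, filters, variance models and array weights, a replicate block and leaving out each array. Same-numbered arrays had correlations of -0.107, 0.0957 and -0.0927 in their deviations, so replicate numbers were not taken as pairs. Figures were drawn with matplotlib 3.10.9 in Python 3.11.15.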

Additional observations from a re-analysis of the deposited data

How the results depend on the processing

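The sign of each Mdk probe, of Ptn, of Sdc2 and of both Ncl probes held in the alternatives run. Mdk ranged from -2.81 to -1.77 on its brightest probe and from -3.27 to -2.15, -2.54 to -0.96 and -1.77 to -0.51 on the others, the smallest sizes of the dim probes (-0.96 and -0.51) coming without background correction. Sdc2 was called in every alternative run, at -1.09 to -0.92 with adjusted p from 0.000433 to 0.0226. Leaving out 1 array gave 1504 to 4384 called probes in all, 1 to 3 for the members other than Mdk (1 without hSRY-OFF replicate 2) and 5 to 24 for the pathway lists. Over all probes the count was 1504, 1621 and 2103 when replicate 1, 2 or 3 of hSRY-OFF was left out, and 2393 when replicate 2 of hSRY-ON was. The replicate numbers did not pair the samples, and with the replicate block 2655 probes were called in all, 2 for the members and 11 for the pathway lists. The dim Ncl probe lost its call with no background correction (adjusted p 0.0656), with no filter (0.0754) and with the replicate block (0.0685). The background sets the limit for the dim probes of Mdk, Ncl and Lrp1.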
